A study of Mus musculus with 18 samples.

Results

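Mouse gastruloids that had reached 96 h after an early pulse of CHIR were set against gastruloids that had just finished the standard pulse at 72 h, across all genes. Gastruloids are aggregates of mouse embryonic stem cells that pattern and elongate in culture, and CHIR is an inhibitor of the kinase GSK3 that switches on canonical Wnt signalling. The early 96 h group (3 libraries) was aggregated from wild-type cells of strain 129/SVEV, received CHIR between 24 and 48 h, and was collected at 96 h, 48 h after the pulse had ended. The control 72 h group (3 libraries) was made from the same genotype and strain, received CHIR between 48 and 72 h, and was collected at 72 h, 0 h after its pulse. These 6 libraries were chosen by their column names in the count table and stand among 18 libraries of 6 groups in all. The groups differ in age by a day, in the window of the pulse and in the time since CHIR, and these cannot be told apart in this comparison. RNA came from many gastruloids of 1 condition put together. The labels do not say whether replicates were grown separately, and the spread behind each p-value may thus be technical. In pooled aggregates, fewer cells of a type and less RNA per cell cannot be told apart.

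The primitive streak is the part of the epiblast in which cells lose contact with their neighbours, move inwards and become mesoderm and endoderm. Wnt and Nodal signals from the posterior epiblast switch on T (Brachyury), Eomes, Mixl1 and Evx1 there. High Nodal activity favours the anterior streak and definitive endoderm, marked by Foxa2, Cer1 and Sox17, whereas sustained Wnt activity is known for the caudal fates marked by Cdx and Hox genes. The study varied the timing of the Wnt pulse, and this comparison asks how a streak-like state seen long after CHIR was gone differs from that seen at the end of the usual pulse.

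Total counts were 17308694, 20460415 and 16785914 in the early 96 h libraries and 18197325, 18834585 and 14841728 in the control 72 h libraries. Over the 1000 most variable genes, libraries of different groups lay 31.4 to 38.9 log2 units apart (Euclidean distance). Early 96 h libraries lay 17.4 to 18 apart. Control replicates 1 and 2 lay 18.02 apart, but control replicate 3 lay 28.1 and 28.7 from them. Some results that rest on that replicate are given with and without it. Others, such as Wnt8a and Cubn, are given only with all libraries. The defining markers of the labelled tissue were present. T, Eomes, Mixl1, Evx1, Fgf8 and Nodal together held 905 to 1100.2 CPM (counts scaled to library size) in early 96 h libraries and 1084 to 1793 CPM in control 72 h libraries. Markers of most other cells were scarce. The 6 trophoblast markers summed to 3.65 to 4.16 CPM in early 96 h and 3.25 to 5.004 CPM in control 72 h, with Prl3d1 and Tpbpa at 0 in all 6 libraries. The 6 fibroblast or feeder markers summed to 11.3 to 13.3 CPM in early 96 h and 12.2 to 14.3 CPM in control 72 h, with Lum at 0. Of the 7 endothelial and blood markers, Hbb-bh1 was at 0, and their sum was 4.59 to 5.43 CPM in early 96 h and 3.998 to 4.09 CPM in control 72 h. The 4 neural markers summed to 2.04 to 3.52 CPM in early 96 h and 0.906 to 2.14 CPM in control 72 h, and the 5 germ cell markers to 35.3 to 39.4 CPM in early 96 h and 26.9 to 38.4 CPM in control 72 h. The 9 extraembryonic endoderm markers differed more, at 58.5 to 64.3 CPM in early 96 h and 20.7 to 26.9 CPM in control 72 h, and are described below beside the endoderm genes.

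Of 16041 genes tested, 1897 (11.8%) were higher and 1738 (10.8%) were lower in early 96 h, together 3635 (22.7%) at an adjusted p under 0.05 in edgeR's quasi-likelihood test. Few of these changes were large. A call with at least a 2-fold change was made for 600 genes (3.74%), 426 of them higher and 174 lower, and at least 4-fold for 113 higher and 20 lower. For 12531 genes (78.1%) the 95% interval of the fold change lay wholly within 2-fold in either direction, and the median log2 fold change over all tested genes was -0.00503. In 6128 genes (38.2%) the 3 early 96 h libraries lay entirely above or below the 3 control 72 h libraries. These shares are the background for every count below.

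**Figure D1:**
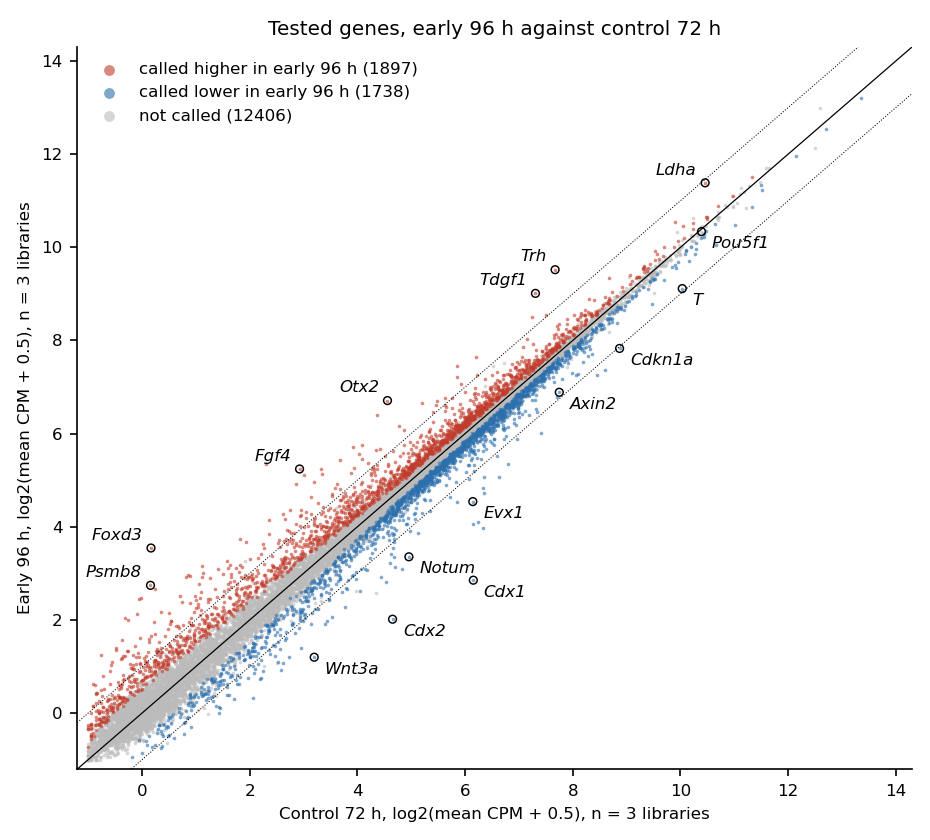
Mean level of each of 16041 tested genes in early 96 h (vertical axis) against control 72 h (horizontal axis), both as log2 of mean CPM plus 0.5 over 3 libraries, with equality as a solid line and 2-fold as dotted lines. Genes called higher (1897) and lower (1738) hug the diagonal, while Foxd3, Psmb8, Fgf4, Otx2, Tdgf1 and Trh lie far above it and Cdx1, Cdx2, Wnt3a, Notum and Evx1 far below it.

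Wnt target genes were lower in early 96 h, without having vanished. Of the 15 tested genes of the Wnt feedback and target list, 10 fell and 0 rose, and the list's median log2 fold change was -0.46. Axin2, the scaffold of the β-catenin destruction complex and the usual readout of the pathway, had 121, 124 and 109 CPM in the early 96 h libraries, against 215, 234 and 196 CPM in the control 72 h libraries (log2 fold change -0.86 ± 0.06 SE, adjusted p = 1.91e-08). Sp5, a transcription factor gene and direct target of β-catenin with its TCF/LEF partners, had 22.99, 27.7 and 22.8 CPM in the early 96 h libraries, against 50.9, 56.3 and 48.99 CPM in the control 72 h libraries (log2 fold change -1.09 ± 0.14 SE, adjusted p = 3.67e-05). For both genes all 3 early libraries lay below all 3 controls. The feedback inhibitors Nkd1 (log2 fold change -1.02 ± 0.10 SE), Notum (-1.65 ± 0.26) and Znrf3 (-0.75 ± 0.09), the factors Lef1 (-0.52 ± 0.10) and Tcf7 (-0.32 ± 0.05), the receptor Tnfrsf19 (-0.55 ± 0.08) and Sp8 (-0.46 ± 0.11) also fell. The Wnt antagonist Apcdd1 fell by 0.39 on the log2 scale, and its call was lost without any 1 of 5 libraries (control replicate 3 being the exception). Levels of Axin2 and Sp5 in early 96 h were still above those of untreated gastruloids at 48 h, which averaged 12.7 CPM of Axin2 and 0 CPM of Sp5. In the early arm itself at 72 h, Axin2 averaged 81.01 CPM and Sp5 4.45 CPM.

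The promoter of Sp5 is printed because it holds the motif by which β-catenin's partners find their targets. The stretch lies on the plus strand at chr2:70474693-70474842 (GRCm38.p6, RefSeq), 230 to 81 bases before the start of the gene. Capitals mark the TCF/LEF motif CTTTGAT and a variant, CTTTGTT, on either strand.
Sp5: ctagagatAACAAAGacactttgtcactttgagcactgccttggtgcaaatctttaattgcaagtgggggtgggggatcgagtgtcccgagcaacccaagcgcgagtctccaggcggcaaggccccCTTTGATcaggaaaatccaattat
The motif CTTTGAT, on either strand and from 250 bases before to 50 bases after the start, was found in 3.73% of 32851 RefSeq promoters, and CTTTGTT in 5.85% (either strand too). The patterns differ in 1 letter, so they cannot match at the same place. Of the 15 listed genes, 10 had promoters in the table, 18 promoters in all, and 2 of these (11.1%), those of Sp5 and Tnfrsf19, held CTTTGAT. A match of letters is no binding site, and no match says only that these letters are not in the window.

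Wnt ligands differed among themselves. Wnt3a, a posterior ligand of the caudal epiblast, had 1.71, 2.42 and 1.27 CPM in the early 96 h libraries, against 7.52, 10.9 and 7.603 CPM in the control 72 h libraries (log2 fold change -2.25 ± 0.21 SE, adjusted p = 6.76e-07). Wnt6 (log2 fold change -1.91 ± 0.35 SE) and Wnt5b (-0.40 ± 0.10) were also lower, and with Wnt3a they were the 3 of 9 tested ligands that passed, with 0 higher. Wnt3, the ligand that the mouse embryo needs to form a streak, had 51.4, 54.3 and 47.8 CPM in the early 96 h libraries, against 62.8, 53.3 and 33.5 CPM in the control 72 h libraries, and these overlapped (log2 fold change 0.03 ± 0.19 SE, adjusted p = 0.9300). Its 95% interval ran from -0.37 to 0.43, and without control replicate 3 the value was -0.18. Wnt8a, a posterior streak ligand, had 197, 152 and 167 CPM in the early 96 h libraries, against 179, 184 and 352 CPM in the control 72 h libraries, and it was not called (log2 fold change -0.47 ± 0.19). Secreted Wnt inhibitors went both ways, with 4 of 11 higher and 2 lower. Sfrp1 (log2 fold change 0.60 ± 0.11 SE), Sfrp5 (1.84 ± 0.31), Shisa3 (2.06 ± 0.27) and Cer1 rose, and Notum and Dkk4 (-1.89 ± 0.35), which are themselves Wnt targets, fell.

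Genes of the posterior primitive streak were present in both groups, at lower levels in early 96 h for several of them. T, the transcription factor of the streak and nascent mesoderm, had 641, 541 and 478 CPM in the early 96 h libraries, against 1008, 1263 and 872 CPM in the control 72 h libraries (log2 fold change -0.92 ± 0.15 SE, adjusted p = 2.16e-04), so its level was lower in every early library. It had averaged 24.8 CPM in the early arm at 72 h and 40.6 CPM at the end of the early pulse. Evx1, a homeobox gene of the posterior streak, had 21.4, 27.2 and 19.8 CPM in the early 96 h libraries, against 75.5, 93.96 and 41.3 CPM in the control 72 h libraries (log2 fold change -1.62 ± 0.25 SE, adjusted p = 1.38e-04). Snai1, which represses E-cadherin as cells leave the epiblast, had 7.46, 8.15 and 5.14 CPM in the early 96 h libraries, against 16.8, 16.2 and 12.5 CPM in the control 72 h libraries (log2 fold change -1.13 ± 0.23 SE, adjusted p = 0.00202). In both, the early libraries lay below all controls. Mixl1, a homeobox gene of mesendoderm, had 25.97, 33.6 and 18.3 CPM in the early 96 h libraries, against 89.3, 134 and 22.03 CPM in the control 72 h libraries (log2 fold change -1.65 ± 0.47 SE, adjusted p = 0.0155). Its groups overlapped because control replicate 3 was low, and its call was lost without early replicate 1 or 3 or control replicate 2, where the log2 fold change was -1.09 and the adjusted p = 0.125.

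Eomes, the T-box factor of mesendoderm that acts under Nodal, went the other way. It had 165, 202 and 154 CPM in the early 96 h libraries, against 125, 123 and 26.3 CPM in the control 72 h libraries. Every early library was above every control, but control replicate 3 was so low that the gene missed the threshold (log2 fold change 0.92 ± 0.33 SE, adjusted p = 0.0541). Without that library the difference was smaller, at 0.49, and was called. The early arm had averaged 41.9 CPM of Eomes at 72 h. Fgf8, the growth factor that drives cells away from the streak, had 64.9, 63.9 and 53.9 CPM in the early 96 h libraries, against 43.2, 51.1 and 48.1 CPM in the control 72 h libraries and was not called (log2 fold change 0.36 ± 0.19 SE, 95% interval -0.03 to 0.75). Over the 13 tested genes of the posterior streak list, 4 fell (T, Evx1, Mixl1 and Snai1), 2 rose (Fgf4 and Nanog) and 7 were not called.

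**Figure D2:**
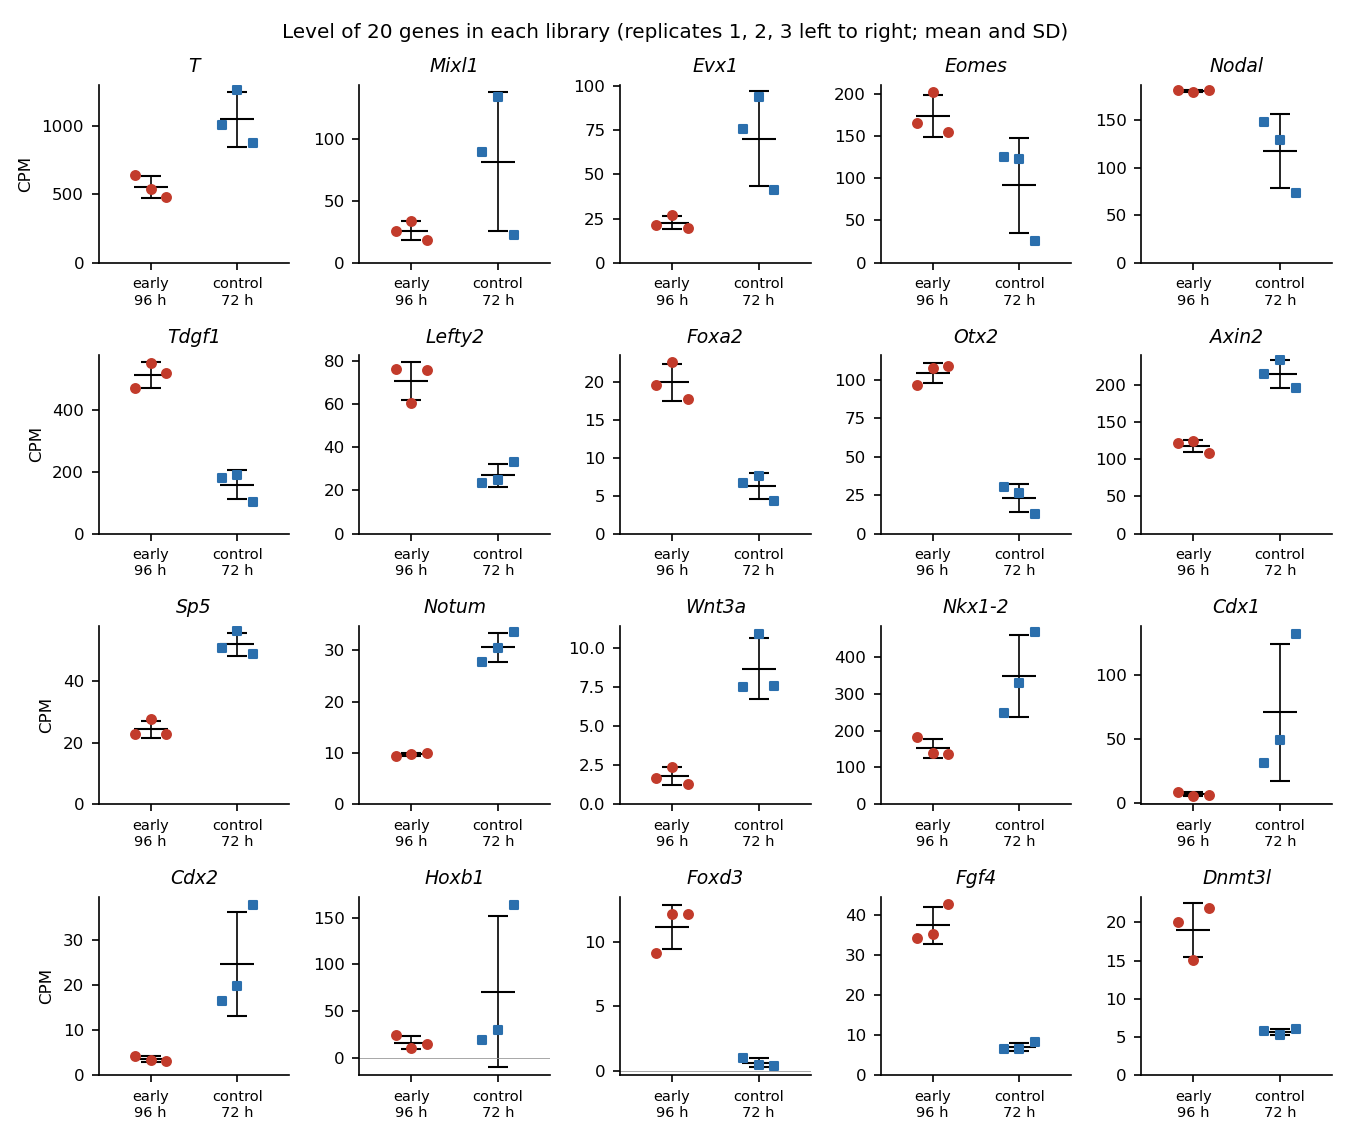
Level of 20 genes in CPM in each of the 3 early 96 h libraries (red circles, left) and the 3 control 72 h libraries (blue squares, right), replicates 1 to 3 from left to right, with mean and SD as black bars. T, Axin2, Sp5, Notum, Wnt3a, Nkx1-2, Cdx1 and Cdx2 lie lower in all early libraries, Tdgf1, Lefty2, Foxa2, Otx2, Foxd3, Fgf4 and Dnmt3l lie higher in all of them, and control replicate 3 stands apart for Hoxb1, Cdx1 and Eomes.

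The Nodal pathway was higher in early 96 h. Of 11 tested genes, 6 rose and 0 fell, with a list median of 0.62. Tdgf1 (Cripto), the co-receptor that Nodal needs, had 471, 553 and 522 CPM in the early 96 h libraries, against 180.3, 189.8 and 104 CPM in the control 72 h libraries (log2 fold change 1.70 ± 0.23 SE, adjusted p = 4.34e-05). Lefty2, a secreted Nodal inhibitor that Nodal itself induces, had 76.4, 60.8 and 75.8 CPM in the early 96 h libraries, against 23.2, 24.6 and 33.01 CPM in the control 72 h libraries (log2 fold change 1.40 ± 0.15 SE, adjusted p = 4.08e-06). The early libraries lay above every control for both genes. Gdf3, a ligand that pairs with Nodal, rose by 1.35 ± 0.15 SE, and Smad7, an inhibitory SMAD, by 0.88 ± 0.08. Nodal itself had 181, 179 and 181 CPM in the early 96 h libraries, against 148, 129 and 73.8 CPM in the control 72 h libraries (log2 fold change 0.62 ± 0.18 SE, adjusted p = 0.0195); its call was lost without early replicate 1, early replicate 3 or control replicate 3, and without the last of these the log2 fold change was 0.38. Cer1, a secreted inhibitor of Nodal, BMP and Wnt made by anterior endoderm, was nearly silent in control 72 h, with 5 counts over its 3 libraries, and had 109 counts in early 96 h. Its levels were 2.49, 2.51 and 0.635 CPM in the early 96 h libraries, against 0.0533, 0.208 and 0 CPM in the control 72 h libraries (log2 fold change 4.25 ± 0.68 SE, adjusted p = 2.13e-04), and without control replicate 2 the log2 fold change was 5.74.

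Genes of the anterior streak and definitive endoderm were higher in early 96 h too: 8 of 14 tested members rose, 0 fell, and the list median was 1.42. Foxa2, the pioneer factor of endoderm, node and axial mesoderm, had 19.6, 22.6 and 17.8 CPM in the early 96 h libraries, against 6.72, 7.66 and 4.35 CPM in the control 72 h libraries (log2 fold change 1.67 ± 0.26 SE, adjusted p = 1.86e-04). It had averaged 1.23 CPM in the early arm at 72 h. Otx2, a homeobox factor of the anterior epiblast and anterior endoderm, had 96.5, 108 and 109 CPM in the early 96 h libraries, against 29.95, 26.3 and 13.00 CPM in the control 72 h libraries (log2 fold change 2.16 ± 0.16 SE, adjusted p = 5.42e-08). Neither gene's groups overlapped. Otx2, unlike Foxa2, had been higher still in the early arm at 72 h, at 147 CPM. Chrd, the BMP antagonist of the node, rose by 0.86 ± 0.16 SE on the log2 scale, Foxj1, a regulator of motile cilia, by 1.40 ± 0.22, and Trh, the precursor gene of thyrotropin-releasing hormone, by 1.85 ± 0.19. Untreated gastruloids at 48 h averaged 14.2 CPM of Foxj1 and 174 CPM of Otx2, against 8.28 and 104 CPM in early 96 h. They averaged less of Foxa2 and Chrd than early 96 h, at 0.443 and 6.19 CPM. Levels of the endoderm factors Sox17 and Cxcr4 were low. Sox17 had 1.602, 1.23 and 0.751 CPM in the early 96 h libraries, against 0.1599, 0.521 and 0.325 CPM in the control 72 h libraries (log2 fold change 1.81 ± 0.46 SE, adjusted p = 0.00861), and Cxcr4 rose by 1.51 ± 0.31. Gsc, the organizer homeobox gene, had 4.48, 6.54 and 4.22 CPM in the early 96 h libraries, against 5.92, 5.99 and 0.715 CPM in the control 72 h libraries, with an interval from -0.61 to 1.11 on the log2 scale. Its value was 0.25 ± 0.41 and became -0.22 without control replicate 3, so no direction was resolved. Lhx1, another organizer gene, had 10.6, 11.6 and 5.43 CPM in the early 96 h libraries, against 3.89, 5.16 and 0.7798 CPM in the control 72 h libraries and was not called (log2 fold change 1.45 ± 0.62 SE).

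Sox17, Gata4 and other endoderm genes are shared with extraembryonic endoderm, whose markers moved in the same direction. On the list of 13 such genes, 12 were tested, 9 rose and 0 fell (median 1.17). Dab2, an adaptor of endocytosis, had 28.6, 32.2 and 31.3 CPM in the early 96 h libraries, against 8.901, 10.6 and 6.43 CPM in the control 72 h libraries (log2 fold change 1.82 ± 0.28 SE, adjusted p = 1.28e-04). Gata4 (log2 fold change 1.21 ± 0.22 SE) and Sox7 (1.85 ± 0.25) also rose. Ttr, the transthyretin of visceral endoderm, was scarce, with 1.16, 1.33 and 1.21 CPM in the early 96 h libraries, against 0.0533, 0.261 and 0 CPM in the control 72 h libraries, 70 counts in all against 6; without control replicate 2 its log2 fold change was 5.12 in place of 3.39. The part of such cells in the rise of the anterior genes was not tested.

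Caudal genes were lower in early 96 h. In the tailbud and neuromesodermal list, 7 of 14 genes fell and 2 rose, with a median of -0.73. Cdx1 and Cdx2, homeobox factors that activate posterior Hox genes, had the greatest falls by a ranking rule. It took called genes at 5 CPM or more in the higher group, without overlap of libraries. Genes with only a clone or predicted-gene name, such as Gm or Rik, were left out of this ranking. Cdx1 had 8.51, 5.68 and 6.01 CPM in the early 96 h libraries, against 31.3, 49.1 and 132 CPM in the control 72 h libraries (log2 fold change -3.38 ± 0.43 SE, adjusted p = 3.58e-05). Cdx2 had 4.199, 3.27 and 3.18 CPM in the early 96 h libraries, against 16.5, 19.8 and 37.8 CPM in the control 72 h libraries (log2 fold change -2.78 ± 0.29 SE, adjusted p = 2.31e-06). For both genes control replicate 3 was the highest, and without it Cdx1 differed by -2.59 and Cdx2 by -2.35 on the log2 scale, still called. Nkx1-2, a marker of the caudal lateral epiblast, had 183, 140.2 and 136 CPM in the early 96 h libraries, against 248, 328 and 468 CPM in the control 72 h libraries (log2 fold change -1.19 ± 0.16 SE, adjusted p = 3.36e-05). Gbx2, a homeobox gene of the early posterior neural plate, fell by 2.40 ± 0.29 SE on the log2 scale (log2 fold change -1.78 without control replicate 3), and Greb1, known as an oestrogen-response gene, fell by 0.54 ± 0.13. Cdx4 had 0.829, 0.521 and 0.289 CPM in the early 96 h libraries, against 1.01, 1.62 and 2.01 CPM in the control 72 h libraries. It was not called (log2 fold change -1.47 ± 1.08 SE), although every early library lay below every control. The SE rests on all 18 libraries, and Cdx4 in control 96 h averaged 54.99 CPM with an SD of 61.7 CPM. The 2 members that rose were Sox2 and Cyp26a1. Sox2, a factor of pluripotency and neural fate, had 67.1, 57.9 and 69.9 CPM in the early 96 h libraries, against 28.5, 29.9 and 61.1 CPM in the control 72 h libraries. The groups overlapped through control replicate 3, and the call (adjusted p = 0.0445) was lost without any 1 of the 5 libraries other than that replicate. Cyp26a1, the enzyme that degrades retinoic acid, rose by 1.47 ± 0.27 SE.

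Hoxb1, among the first Hox genes to be switched on, showed how far the controls differed among themselves. It had 24.2, 10.2 and 14.5 CPM in the early 96 h libraries, against 18.98, 29.9 and 164 CPM in the control 72 h libraries (log2 fold change -2.11 ± 0.54 SE, adjusted p = 0.00886), and the groups overlapped. The call was lost without control replicate 3, where the log2 fold change was -0.60 (adjusted p = 0.116). Of 11 listed genes of Hox groups 1 to 4, 1 was called lower with all libraries, 2 without control replicate 2 and 4 without control replicate 1, whereas without control replicate 3 the calls were 0 lower and 1 higher. Of Hox groups 5 to 9, edgeR called 0 of 12 tested genes, and 0 had an unadjusted p under 0.05. Of 12 tested genes on the presomitic mesoderm and somite list, 1 rose, Tcf15 (log2 fold change 1.38 ± 0.24 SE), and 1 fell, Dll1, a Notch ligand; without early replicate 2 or 3 or control replicate 3, 0 were lower, and 2 were lower without early replicate 1. Tbx6, a presomitic mesoderm factor, had 1.602, 0.8998 and 0.808 CPM in the early 96 h libraries, against 1.49, 1.98 and 1.300 CPM in the control 72 h libraries; Msgn1, also presomitic, had 0.166, 0.0947 and 0.116 CPM in the early 96 h libraries, against 0.107, 0.782 and 0.1300 CPM in the control 72 h libraries; and Mesp1, of early cardiac mesoderm, had 0.111, 0.142 and 0.0578 CPM in the early 96 h libraries, against 0.426, 0.261 and 0.1300 CPM in the control 72 h libraries. None of the 3 was called. Nascent, cardiac and vascular mesoderm had 3 of 15 genes higher and 0 lower in edgeR, with 5 at an unadjusted p under 0.05, a share near the background in either direction.

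**Figure D3:**
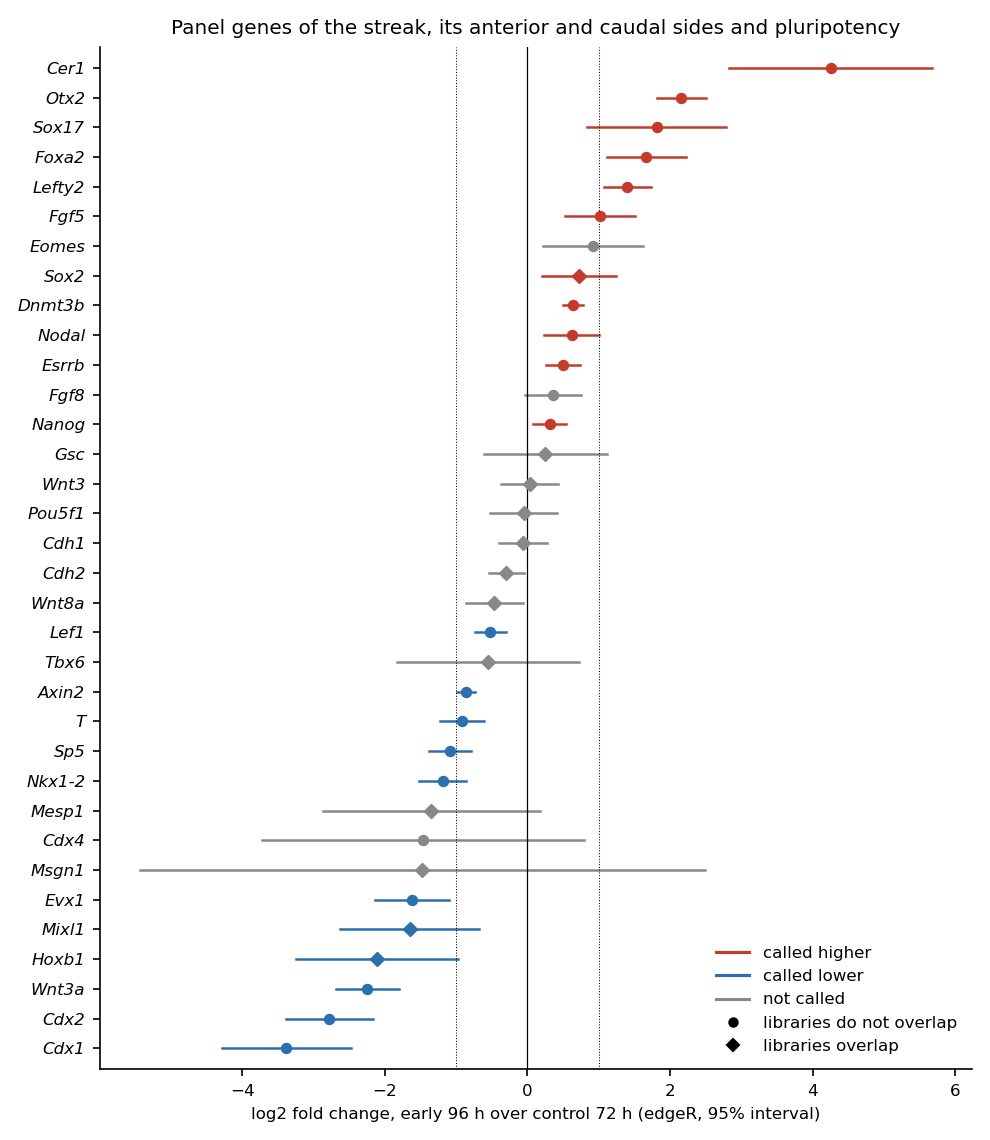
Log2 fold change of 34 panel genes, early 96 h over control 72 h, with 95% intervals from edgeR; red was called higher, blue lower and grey not called, and diamonds mark genes whose libraries overlap. Cer1, Otx2, Sox17 and Foxa2 are at the top, Cdx1, Cdx2 and Wnt3a at the bottom, and Wnt3, Pou5f1 and Cdh1 straddle 0.

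Genes of the formative epiblast, the state between naive stem cells and the streak, were higher in early 96 h. Of 17 tested, 11 rose and 1, the Wnt factor Lef1, fell (median 0.60). Foxd3, a forkhead factor that opens enhancers in the formative epiblast, had the greatest rise in the comparison by the rule above. Its levels were 9.17, 12.2 and 12.2 CPM in the early 96 h libraries, against 1.01, 0.469 and 0.3899 CPM in the control 72 h libraries (log2 fold change 4.12 ± 0.24 SE, adjusted p = 2.60e-09). Pou3f1 (Oct6) had 56.2, 50.9 and 53.6 CPM in the early 96 h libraries, against 18.6, 15.9 and 15.01 CPM in the control 72 h libraries (log2 fold change 1.69 ± 0.10 SE, adjusted p = 3.38e-09). In each of these the lowest early library was well above the highest control. Fgf5, the classic epiblast growth factor, rose by 1.02 ± 0.23 SE on the log2 scale, Zic2 by 0.60 ± 0.08 and Grhl2, a factor of epithelial enhancers, by 0.45 ± 0.09. The de novo DNA methyltransferases were higher together in early 96 h than in control 72 h. Dnmt3b, the main epiblast enzyme, had 1443, 1544 and 1466 CPM in the early 96 h libraries, against 1055, 997 and 803 CPM in the control 72 h libraries (log2 fold change 0.64 ± 0.07 SE, adjusted p = 2.49e-06). Dnmt3a rose by 0.60 ± 0.10, and Dnmt3l, their catalytically inactive partner, by 1.74 ± 0.15. The early arm at 72 h had averaged more of each, with 2194 CPM of Dnmt3b, 635 of Dnmt3a and 61.4 of Dnmt3l. Foxd3, at 30.5 CPM, had been higher there too, whereas Fgf5, at 87.6 CPM, had been lower.

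Naive pluripotency genes also stood higher in early 96 h, with 11 of 16 tested higher and 1 lower (median 0.97). Zfp42 (Rex1) had 38.6, 33.5 and 40.7 CPM in the early 96 h libraries, against 18.2, 17.1 and 20.9 CPM in the control 72 h libraries (log2 fold change 1.01 ± 0.08 SE, adjusted p = 1.68e-07). Dppa5a had 360.0, 303 and 421 CPM in the early 96 h libraries, against 155, 129 and 167 CPM in the control 72 h libraries (log2 fold change 1.27 ± 0.10 SE, adjusted p = 5.26e-08). Both separated the groups fully. Esrrb, an orphan nuclear receptor of the naive network, rose by 0.50 ± 0.12 SE, Klf2 by 0.94 ± 0.18 and Nr5a2 by 1.53 ± 0.17, while Prdm14 (log2 fold change 2.51 ± 0.41) and Dppa3 (2.55 ± 0.36) rose at low levels, with at most 2.83 CPM in early 96 h and 0.469 CPM in control 72 h. Tfcp2l1, a naive factor that is also a Wnt target in stem cells, was the exception, with 21.4, 19.13 and 16.9 CPM in the early 96 h libraries, against 32.4, 36.9 and 30.5 CPM in the control 72 h libraries (log2 fold change -0.80 ± 0.09 SE, adjusted p = 4.80e-06). Of the 12 general pluripotency genes, 5 rose and 0 fell. Pou5f1 (Oct4) had 1281, 1274 and 1326 CPM in the early 96 h libraries, against 1369, 1360.0 and 1297 CPM in the control 72 h libraries, with a 95% interval from -0.52 to 0.42 on the log2 scale, which bounds its change within 2-fold. Nanog had 356, 367 and 392 CPM in the early 96 h libraries, against 342, 313 and 242 CPM in the control 72 h libraries (log2 fold change 0.31 ± 0.11 SE, adjusted p = 0.0465), and its call was lost without any 1 of the 5 libraries other than control replicate 1. Utf1, a chromatin factor of pluripotent cells, rose by 0.80 ± 0.15. Without any early library, or without control replicate 2, the list had 3 higher. Earlier in the early arm, at 72 h, Dppa5a averaged 644 CPM, Esrrb 60.3 CPM and Dppa3 2.17 CPM. In early 96 h these averaged 361.5, 36.7 and 2.02 CPM.

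Fgf4 and Fgf15, FGF genes that pluripotent cells make, were much higher in early 96 h than in control 72 h. Fgf4 had 34.1, 35.2 and 42.7 CPM in the early 96 h libraries, against 6.503, 6.57 and 8.25 CPM in the control 72 h libraries (log2 fold change 2.40 ± 0.13 SE, adjusted p = 1.14e-09). Fgf15 had 28.5, 28.7 and 31.6 CPM in the early 96 h libraries, against 8.42, 7.66 and 4.35 CPM in the control 72 h libraries (log2 fold change 2.10 ± 0.17 SE, adjusted p = 8.54e-08). For both genes the early 96 h libraries lay above all control 72 h libraries. Control gastruloids at 96 h averaged more of both, at 73.7 CPM of Fgf4 and 47.8 CPM of Fgf15. The early arm at 72 h had averaged 107 CPM of Fgf4 and 45.1 CPM of Fgf15. Of the 13 FGF and ERK feedback genes, 6 rose, among them Etv5 (log2 fold change 0.43 ± 0.04 SE), an ETS factor downstream of FGF, and the inhibitor Spry2 (0.70 ± 0.12). The related inhibitor Spry4 was the 1 member that fell, with a log2 fold change of -0.28 ± 0.09, and this call was lost without early replicate 2 or 3 or control replicate 1 or 2. In the BMP list 3 of 12 rose and 2 fell, with Bmp4 at a log2 fold change of 0.73 ± 0.19 and Bmp7 at -0.44 ± 0.10. Of the retinoic acid genes, Dhrs3, a retinaldehyde reductase that lowers retinoic acid, had 7.35, 6.25 and 7.22 CPM in the early 96 h libraries, against 1.39, 2.08 and 2.21 CPM in the control 72 h libraries (log2 fold change 1.88 ± 0.22 SE, adjusted p = 1.10e-05). With Cyp26a1 it made 2 of 11 higher; the 1 lower, the retinol receptor Stra6 (-1.74 ± 0.55), was called only while all early libraries and control replicate 3 were kept, and stood at -0.59 without that control. The Notch and clock list had 1 of 10 higher, Hes1 (0.48 ± 0.11), and 1 lower, Dll1 (-1.09 ± 0.34), whose call was lost without early replicate 2 or 3 or control replicate 3.

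Epithelial genes were higher in early 96 h, with 9 of 14 tested higher and 0 lower (median 0.54). Krt18, a keratin of simple epithelia, had 30.00, 30.1 and 29.8 CPM in the early 96 h libraries, against 11.03, 12.4 and 12.2 CPM in the control 72 h libraries (log2 fold change 1.33 ± 0.14 SE, adjusted p = 2.10e-06). Its partner Krt8 rose by 0.89 ± 0.21 SE, the tight-junction proteins Cldn3 by 1.00 ± 0.21 and Cldn7 by 0.68 ± 0.12, and the small GTPase Rab25 by 0.99 ± 0.14. Cdh1 (E-cadherin) had 665, 732 and 653 CPM in the early 96 h libraries, against 713, 750.1 and 677 CPM in the control 72 h libraries, overlapping, with its 95% interval from -0.39 to 0.27 on the log2 scale. Cdh2 (N-cadherin) had 26.96, 28.1 and 27.7 CPM in the early 96 h libraries, against 26.1, 34.3 and 41.7 CPM in the control 72 h libraries and was not called (log2 fold change -0.29 ± 0.12 SE). The mesenchymal list had 2 of 12 higher, Twist1 (0.99 ± 0.11) and the matrix protein Sparc (0.90 ± 0.08), and 1 lower, Snai1. Neural genes had 2 of 10 higher and 0 lower, surface ectoderm and crest 1 of 7 higher and 0 lower, endothelium and blood 3 of 10 higher and 2 lower, trophoblast 2 of 7 higher and 1 lower, primordial germ cell genes 5 of 10 higher and 0 lower, and genes of the two-cell-like state 1 of 5 higher and 0 lower. The fibroblast and feeder list had 0 of 5 called in edgeR, and 0 with an unadjusted p under 0.05.

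In the hypoxia and glycolysis list 12 of 19 rose and 0 fell, with a median of 0.35. Ldha, the enzyme that turns pyruvate into lactate, had 2739, 2593 and 2683 CPM in the early 96 h libraries, against 1382, 1398 and 1439 CPM in the control 72 h libraries (log2 fold change 0.93 ± 0.05 SE, adjusted p = 1.21e-09). Ndrg1, a hypoxia-inducible gene, had 41.3, 47.9 and 38.98 CPM in the early 96 h libraries, against 12.7, 17.9 and 6.17 CPM in the control 72 h libraries (log2 fold change 1.79 ± 0.26 SE, adjusted p = 9.75e-05). For both, each early library exceeded each control. The glucose transporter Slc2a3 rose by 1.03 ± 0.25 SE, the phosphofructokinase Pfkp by 0.79 ± 0.06 and Vegfa by 0.57 ± 0.10. Of the Atf4 and amino acid stress genes 9 of 14 rose and 0 fell, led by the cationic amino acid transporter Slc7a3 (1.36 ± 0.08) and with the pseudokinase Trib3 at 0.69 ± 0.13.

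In the p53 list 5 of 14 fell and 2 rose. Cdkn1a (p21), an inhibitor of cyclin-dependent kinases, had 234, 221 and 226 CPM in the early 96 h libraries, against 450.2, 458 and 494 CPM in the control 72 h libraries (log2 fold change -1.04 ± 0.06 SE, adjusted p = 3.23e-09). Trp53inp1 fell as well (-0.47 ± 0.05), whereas the pro-apoptotic Pmaip1 (0.46 ± 0.08) and Bbc3 (0.31 ± 0.07) rose. Without early replicate 2 only 2 members were called lower, and without early replicate 3 or control replicate 1, 3. Replication and mitosis genes rose slightly, 9 of 15, with 0 lower and a median of 0.19; Ccna2 (0.33 ± 0.04), Cdk1 (0.35 ± 0.04), Plk1 (0.35 ± 0.04) and Aurka (0.39 ± 0.05) were among them. The interval of all 15 lay within 2-fold. Egr1, an immediate early gene downstream of ERK, had 10.4, 9.23 and 6.87 CPM in the early 96 h libraries, against 20.1, 23.4 and 27.8 CPM in the control 72 h libraries (log2 fold change -1.42 ± 0.20 SE, adjusted p = 6.34e-05), and Dusp1, a phosphatase that ends MAP kinase signals, rose (0.78 ± 0.10). Each was the 1 called gene in its direction among 15 immediate early and heat shock genes. Mitochondrially encoded genes had 3 of 6 tested lower and 0 higher; counts from them made up 0.925% to 1.35% of early 96 h libraries and 1.23% to 1.76% of controls. Without early replicate 2 or control replicate 1 this list had 0 called lower, without early replicate 1 it had 1, and without early replicate 3 it had 5. Sterol synthesis genes had 3 of 15 higher and 2 lower, and Eph and ephrin genes 2 of 15 higher and 3 lower, both near the background; 0 Eph and ephrin genes were called lower without early replicate 2 or 3.

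**Figure D4:**
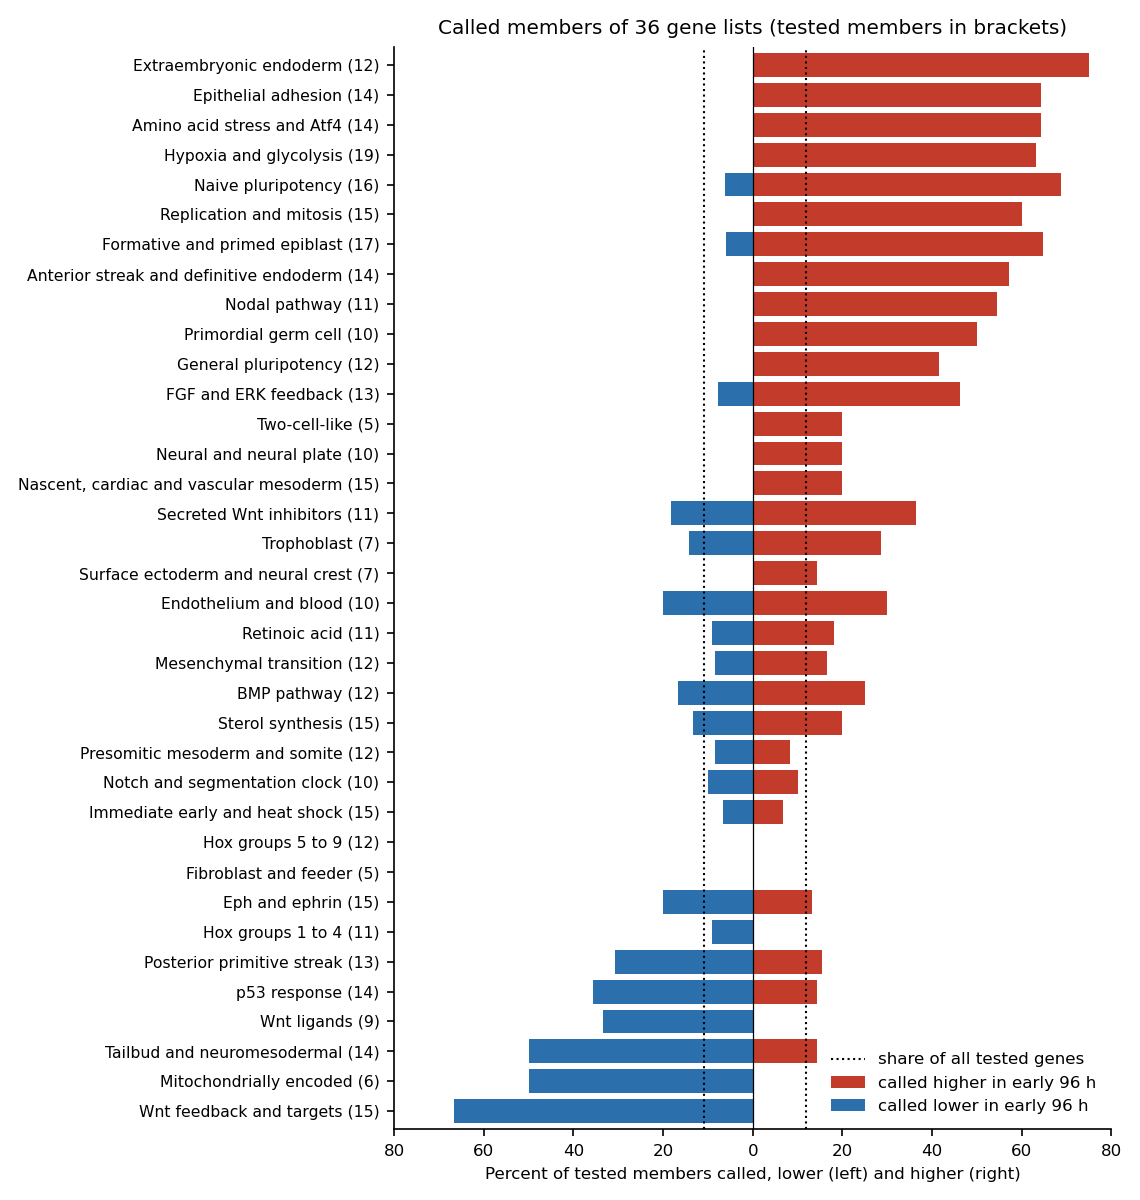
Percent of tested members of 36 gene lists that were called higher (red, right) and lower (blue, left) in early 96 h, lists ordered by the difference, with the shares of all tested genes (11.8% higher, 10.8% lower) as dotted lines. Extraembryonic endoderm, epithelial, Atf4, glycolysis and pluripotency lists extend far to the right, and Wnt feedback, mitochondrially encoded and tailbud lists to the left.

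The 12 greatest rises by the ranking rule were, in order, Foxd3, Psmb8, Car4, Oasl2, Gbp2, Srgn, Fgf4, H2-M5, Dpp4, Ccn2, Tgm3 and Otx2. Only called genes at 5 CPM or more, without clone or predicted-gene names, were ranked. Car4, a membrane carbonic anhydrase, had 38.3, 39.4 and 43.8 CPM in the early 96 h libraries, against 5.12, 4.59 and 3.64 CPM in the control 72 h libraries (log2 fold change 3.17 ± 0.17 SE, adjusted p = 1.14e-09). Dpp4, a cell surface peptidase, had 7.07, 6.77 and 7.62 CPM in the early 96 h libraries, against 1.23, 1.77 and 1.04 CPM in the control 72 h libraries (log2 fold change 2.38 ± 0.23 SE, adjusted p = 7.93e-07). Early and control libraries were far apart in each. Srgn, a proteoglycan core protein (log2 fold change 2.42 ± 0.48 SE), Tgm3, a transglutaminase (2.17 ± 0.27), the MHC class I-like H2-M5 (2.39 ± 0.28) and the matricellular Ccn2 (adjusted p = 5.17e-07) rose as well. The 12 greatest falls were Cdx1, Cdx2, Gbx2, Wnt3a, Tenm1, Epp13, Slc9a9, Evx1os, Zfpm2, Sidt1, Clstn2 and Notum. Evx1os, the antisense partner of Evx1, had 6.63, 10.1 and 7.45 CPM in the early 96 h libraries, against 28.2, 35.5 and 20.2 CPM in the control 72 h libraries (log2 fold change -1.79 ± 0.21 SE, adjusted p = 7.27e-06); whether counting used strand is not given in the sources used here, so reads of the stretch that it shares with Evx1 cannot be assigned to either gene. Zfpm2 (FOG2), a cofactor of GATA factors, fell by 1.77 ± 0.27 and Tenm1, a teneurin, fell by 1.97 ± 0.19.

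Psmb8, Oasl2 and Gbp2 among the rises are interferon-inducible genes, and the wider family was looked at after their values were seen, so it is a description without a test of its own. Psmb8, a subunit of the immunoproteasome, had 6.91, 5.399 and 6.29 CPM in the early 96 h libraries, against 0.6396, 0.625 and 0.585 CPM in the control 72 h libraries (log2 fold change 3.31 ± 0.37 SE, adjusted p = 4.65e-06). Oasl2, an antiviral protein, had 6.85, 4.26 and 6.35 CPM in the early 96 h libraries, against 0.4797, 0.782 and 0.7798 CPM in the control 72 h libraries (log2 fold change 3.09 ± 0.41 SE, adjusted p = 3.75e-05). Irgm1, an immunity-related GTPase and the most abundant of its kind here, had 38.7, 30.4 and 34.1 CPM in the early 96 h libraries, against 8.69, 11.9 and 8.51 CPM in the control 72 h libraries (log2 fold change 1.82 ± 0.17 SE, adjusted p = 7.36e-07). All 3 were higher in each early library. Of 49 interferon and antigen presentation genes chosen in this way, 43 were tested, 28 were called higher and 2 lower (median 1.21). The transcription factor Irf1 rose by 1.21 ± 0.13 SE, the helicase Mov10 by 1.32 ± 0.09, the peptide trimming enzyme Erap1 by 1.55 ± 0.16, and Tap2 and Tapbp, which load peptides onto MHC class I, by 1.67 ± 0.22 and 1.38 ± 0.18. The class I gene H2-K1 rose by 0.48 ± 0.08. The 2 lower were Nlrc5 (log2 fold change -0.72 ± 0.24) and Dhx58 (-0.54 ± 0.19), both under 3 CPM, and neither call held without early replicate 1 or 2 or any 1 of the controls. Psmb8 was low at the end of either pulse, averaging 0.655 CPM in the early arm at 48 h, and 3.37 CPM a day later. Not all members were low then: Mov10 averaged 82.6 CPM in the early arm at 48 h and 29.9 CPM in untreated gastruloids. Control gastruloids at 96 h averaged 7.599 CPM of Psmb8, 10.8 of Oasl2 and 10.6 of Gbp2. Early 96 h averaged 6.2001, 5.82 and 7.11 CPM of these. The arms overlapped in Psmb8, with control 96 h libraries at 10.7, 7.49 and 4.61 CPM. In control 96 h the SD was 4.46 CPM for Oasl2 and 5.75 CPM for Gbp2. Other members, such as Irgm1 and Irf1, averaged less there, at 16.98 and 18.9 CPM, against 34.4 and 66.8 CPM in early 96 h. The difference between the arms at 96 h was not tested.

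Promoter windows of guanylate-binding protein (Gbp) and immunity-related GTPase genes are printed because a shared motif recurs close to their starts. Capitals mark GAAANNGAAA, the core of the interferon-stimulated response element, on either strand, where overlapping matches run together; sequences are from RefSeq on GRCm38.p6, read along the strand of the gene.
Gbp2, chr3:142620584-142620623, plus strand: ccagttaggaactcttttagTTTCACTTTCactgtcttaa
Gbp2b, chr3:142594690-142594729, plus strand: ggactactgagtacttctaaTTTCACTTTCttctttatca
Gbp3, chr3:142559979-142560018, plus strand: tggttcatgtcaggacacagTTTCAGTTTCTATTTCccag
Gbp7, chr3:142530263-142530302, plus strand: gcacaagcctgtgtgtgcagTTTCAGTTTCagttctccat
Irgm1, chr11:48871431-48871470, minus strand: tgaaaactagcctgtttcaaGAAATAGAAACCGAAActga
Irgm2, chr11:58214893-58214932, plus strand: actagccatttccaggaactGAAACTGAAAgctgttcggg
Igtp, chr11:58199502-58199541, plus strand: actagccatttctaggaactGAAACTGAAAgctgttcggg
The motif was found in 3.44% of 32851 promoters of 300 bases, and in 20 of the 44 promoters (45.5%) matched to 38 of the 49 genes. The genes printed here were all called higher. The motif was also in B2m, Ifih1, Rsad2, Socs1 and Stat2, which were not called, and in Gbp5, Ifit1 and Ifit3, which were not tested. The windows of Irgm2 and Igtp differ in few letters, and these gene families hold near-identical copies, so reads could be split between members and their single values are uncertain. As counted, Gbp2 had 8.07, 5.64 and 7.62 CPM in the early 96 h libraries, against 1.12, 1.199 and 1.49 CPM in the control 72 h libraries, Irgm2 rose by 1.47 ± 0.26 SE, Igtp by 1.65 ± 0.23, Gbp2b by 3.38 ± 0.48 and Gbp7 by 1.93 ± 0.32. Gbp3 was near the floor, with 38 counts in early 96 h and 5 in control 72 h; its log2 fold change was 2.75 ± 0.66, or 3.40 without control replicate 1. The motif is a description of the letters and no evidence of a factor bound there.

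**Figure D5:**
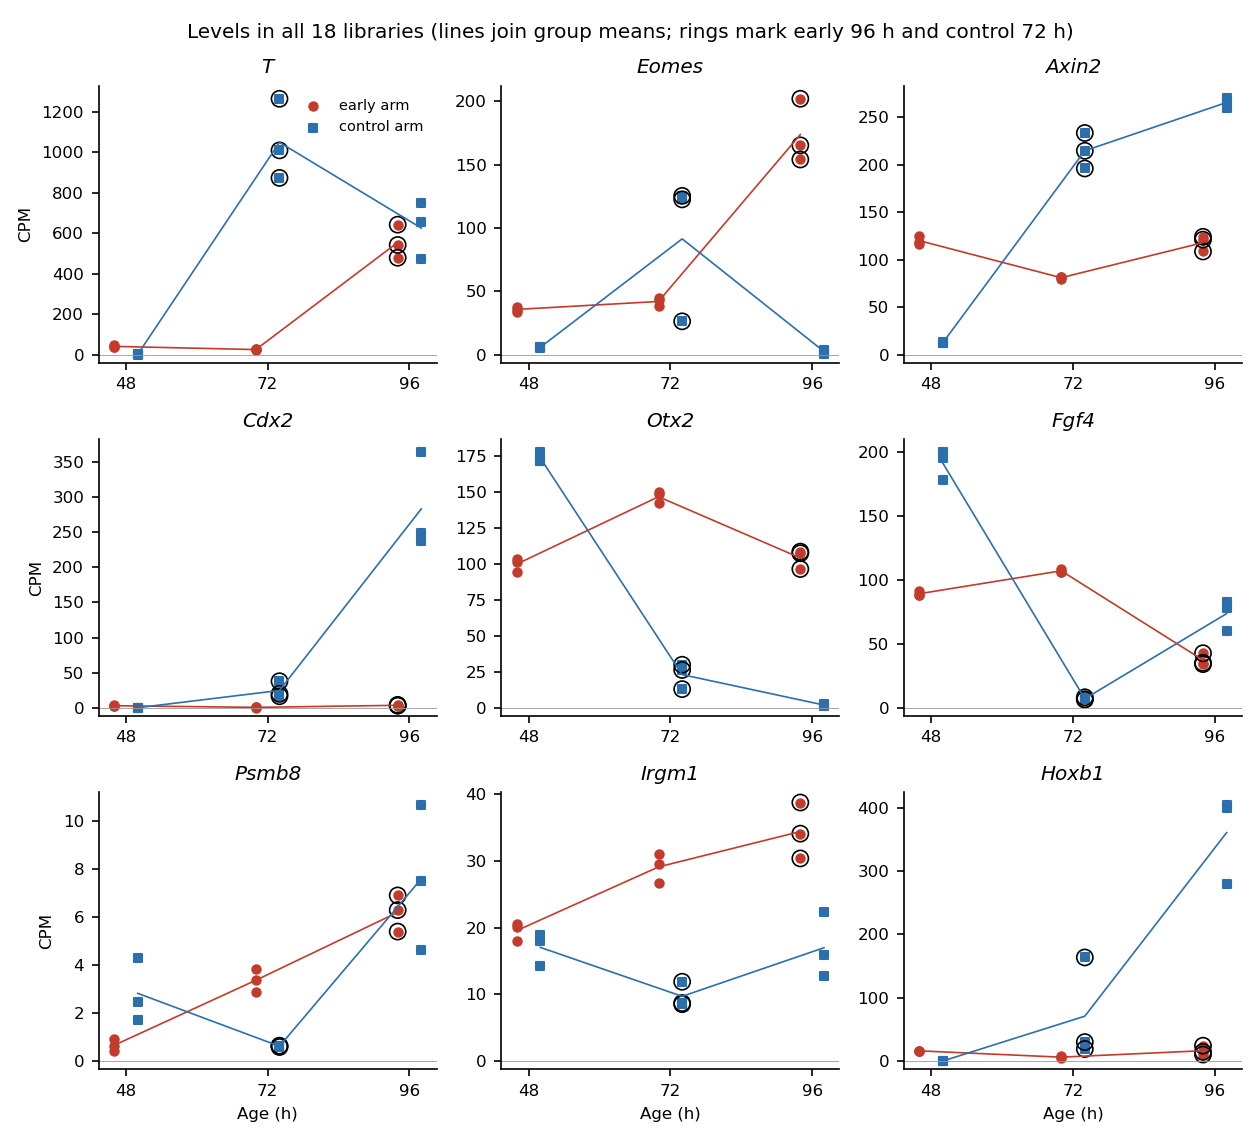
Levels in CPM of 9 genes in all 18 libraries by age in hours, with the early arm as red circles, the control arm as blue squares, lines through the group means and rings around the early 96 h and control 72 h libraries. T and Eomes climb in the early arm after 72 h, Psmb8 and Irgm1 are higher in early 96 h than in control 72 h, and no early-arm library exceeds 4.199 CPM of Cdx2 or 24.2 CPM of Hoxb1.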

How the data were processed

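PolyA RNA of pooled gastruloids was sequenced from stranded libraries, per the labels' protocols. The deposited counts are whole numbers per gene, and the deposited FPKM values are scaled to length and depth by the authors. The tools named are cutadapt 4.0, STAR 2.7.8a and Cufflinks 2.2.1, and the build is mm10, per the submitters' processing notes. Settings of the counting step, strand included, are not stated there. The protocol names library preparation codes without assigning libraries to them, so no batch was modelled. 0 sample columns were left unused.

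From the counts, 16041 genes passed filterByExpr, were scaled by TMM and fitted in R 4.3.3 with edgeR 4.0.16 as 6 group means over the 18 libraries (limma 3.58.1 for FPKM). Early 96 h over control 72 h was tested 2-sided by quasi-likelihood with Benjamini-Hochberg adjustment over all tested genes, and called at 0.05. The SE is the log2 fold change divided by the square root of F; intervals are 95%. Intervals cover these libraries only. CPM are TMM-scaled. Alternatives were DESeq2 1.42.0, other filters and scalings, a replicate block, FPKM with limma, and leaving out libraries. Named genes are a panel of 34 (1 more is not reported here), the 12 greatest rises and 12 greatest falls (called, 5 CPM or more in the higher group, no overlap), and called or tightly bounded members of 36 lists, which share some members. Genes with clone or predicted-gene names, such as Gm or Rik, were left out of the greatest changes. Members and lists were chosen with earlier results of these data known. Promoters came from RefSeq (GRCm38.p6). Figures used Python 3.11.15 and matplotlib 3.10.9.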

Additional observations from a re-analysis of the deposited data

How the results depend on the processing

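Across 11 planned settings the count of genes called ranged from 2446 to 4848, against 3635. DESeq2 size factors gave 3627 calls, a filter of 1 CPM 3660, no filter 3621 and the DESeq2 Wald test 3527. Fitting only the 6 libraries gave 3144, and leaving out the 3 controls numbered 3 gave 4848, of which 3369 were among the 3635. Leaving out each library in turn gave 2627 to 3162. Same-numbered libraries of the groups correlated at -0.0595, 0.102 and 0.112, and 1 of the 3 early libraries correlated best with its own number. With so few libraries these values cannot decide whether same-numbered libraries shared a culture or preparation. With the number as a replicate block 3885 genes were called. With FPKM in place of counts, limma called 2877 genes, 137 by at least 2-fold; with a pseudocount of 0.1, 1100 lower and 398 by at least 2-fold; over all genes above 0, 980 lower, 139 by at least 2-fold and 25784 with intervals within 2-fold, where more genes were tested. The causes of the other moves were not tested. Signs turned for genes that were not called: Gsc was -0.22 without control replicate 3 and -0.20 without the 3 controls numbered 3, Wnt3 -0.18 and -0.17, and Msgn1 0.0695 with FPKM plus 1, the same over all genes, and 0.41 with FPKM plus 0.1. Over the libraries left out in turn Gsc ran from -0.22 to 0.59, Wnt3 from -0.18 to 0.24 and Msgn1 from -1.92 to 0.0858. Counts of calls in lists with 5 or fewer moved by up to 3 members when single libraries were left out. Counts near the floor and control replicate 3 limit the low genes and the Hox genes most.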

Other observations

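4 further gene groups were chosen after their values were seen and are given as values only, against a background of 11.8% of genes higher and 10.8% lower. Germline and meiosis genes stood higher in early 96 h, with 15 of 25 tested called higher and 1 lower (median log2 fold change 0.66). Hormad1, a protein of meiotic chromosome axes, had 12.8, 10.8 and 14.8 CPM in the early 96 h libraries, against 2.03, 1.98 and 5.13 CPM in the control 72 h libraries (log2 fold change 2.11 ± 0.29 SE, adjusted p = 4.55e-05). Tdrd12, of the piRNA pathway, had 28.3, 24.9 and 30.8 CPM in the early 96 h libraries, against 11.5, 9.48 and 13.5 CPM in the control 72 h libraries (log2 fold change 1.29 ± 0.16 SE, adjusted p = 1.46e-05). Both separated the groups. Morc1 rose by 1.89 ± 0.19 SE and Ooep, an egg protein also made by stem cells, by 2.13 ± 0.24. The 1 member that fell was Rec8, a meiotic cohesin, with 14.3, 13.4 and 14.4 CPM in the early 96 h libraries, against 26.4, 24.3 and 52.3 CPM in the control 72 h libraries (log2 fold change -1.28 ± 0.20 SE, adjusted p = 2.00e-04). Germ cell markers such as Ddx4 are among the uncalled members. The early arm at 72 h had averaged more of Hormad1 (33.9 CPM), Tdrd12 (48.3), Morc1 (26.9) and Ooep (13.5). Early 96 h averaged 12.8, 28.0, 12.2 and 7.11 CPM of these. Untreated gastruloids at 48 h averaged 29.2, 44.5, 31.4 and 16.6 CPM. Tdrd5, which was not called, went the other way, from 14.8 CPM in the early arm at 72 h to 37.0 CPM.

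Hedgehog readouts were lower in early 96 h. Ptch1, the receptor and target gene, had 50.1, 50.3 and 47.2 CPM in the early 96 h libraries, against 77.1, 85.2 and 79.02 CPM in the control 72 h libraries (log2 fold change -0.71 ± 0.05 SE, adjusted p = 1.91e-08), and Gli1, its other standard readout, fell by 1.48 ± 0.13 SE on the log2 scale; of 12 tested pathway genes 4 were lower and 1 higher. Among actin and YAP target genes 7 of 14 were higher and 0 lower, with Ccn2 at 32.2, 30.4 and 39.6 CPM in early 96 h against 6.45, 4.48 and 11.6 CPM in control 72 h and Ccn1 at a log2 fold change of 1.30 ± 0.15. Of 15 tested genes of apical uptake and transport in visceral endoderm, 12 were higher and 1 lower. Cubn, the cubilin receptor, had 38.6, 38.3 and 35.2 CPM in the early 96 h libraries, against 10.8, 14.6 and 2.99 CPM in the control 72 h libraries (log2 fold change 1.95 ± 0.45 SE, adjusted p = 0.00452). Lrp2 (megalin) rose by 0.85 ± 0.14, Apob by 1.88 ± 0.36 and the folate receptor Folr1 by 2.39 ± 0.32, and Apoe fell by 0.32 ± 0.08. Cubn averaged 40.8 CPM in the early arm at 72 h. Lrp2 and Folr1 averaged more there than in early 96 h, at 173 and 6.13 CPM against 88.95 and 3.999 CPM. Apob averaged less there, at 13.3 CPM against 17.2 CPM. Untreated gastruloids at 48 h averaged 329 CPM of Lrp2, 4.75 of Folr1, 11.1 of Cubn and 1.88 of Apob.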
